A study of Mus musculus with 56 samples.

Results

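The livers compared here came from 16 of the 56 mice of the series: 8 DIO-MASH mice dosed with high-dose semaglutide (labelled semaglutide_high) and 8 dosed with vehicle (labelled NASHVehicle). The members were taken from the labels, and every mouse of both groups was used. All 16 were male C57BL/6J mice that arrived at 5 to 6 weeks of age and ate the AMLN diet, rich in fat, fructose and cholesterol, for 36 weeks before dosing. They then received semaglutide at 120 µg/kg or vehicle once daily under the skin for 8 weeks while the diet continued, so the comparison is of treated with untreated disease and not of disease with health. Only mice whose biopsy showed steatosis and fibrosis at the start had been entered, and they were housed singly, which limits the model to established diet-induced disease in males of 1 inbred strain. Each library came from a small piece of whole liver, in which fewer cells of a type and less RNA per cell cannot be told apart. For comparison, values are also given for 8 vehicle-dosed mice fed chow instead of the AMLN diet. Further groups of 8 AMLN-fed mice received low-dose semaglutide (3 µg/kg) or high-dose zalfermin (0.2 mg/kg). They were of the same sex, strain and arrival age, and all 7 groups of the series entered 1 shared fit.

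Semaglutide is a long-acting agonist of the GLP-1 receptor, a receptor of pancreatic islets and of brain regions that control appetite, and it is known for lowering food intake, body weight and blood glucose. Steatohepatitis (MASH) combines fat-laden hepatocytes with inflammation and scar matrix, and advanced disease is known for loss of the secretory and metabolic program of hepatocytes. Liver parenchyma is generally held to express little or no GLP-1 receptor. In these livers Glp1r, which encodes it, had 2 reads in all in the 8 high-dose mice and 3 in the 8 vehicle mice, below the level needed for a test.

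Reads on genes ranged from 8315012 to 15848192 per high-dose mouse and from 7393654 to 16434379 per vehicle mouse, and the mean difference of 1194170 reads was smaller than the spread (exact two-sided permutation test, p = 0.383, 8 against 8 mice). Hepatocyte markers summed to 67507 to 111595 CPM (reads scaled to a common library size, median 97956) in high-dose and to 61641 to 83709 CPM (median 71422) in vehicle mice, and 3 of the 8 were called higher in the test described next. Cholangiocyte markers had lower sums in high-dose than in vehicle mice (71.8 to 540 CPM, median 178, against 192 to 590 CPM, median 382), and so had markers of monocyte-derived macrophages (62.6 to 251 CPM, median 128, against 187 to 264 CPM, median 205), though none of these 6 and 7 genes was called. Of 6 exocrine pancreas markers, 3 had no read in any of the 16 mice. The labels number the animals in separate runs, here called number series A to D. Series A held high-dose mice 1 to 4 and vehicle mice 1 and 2, series B held high-dose mice 5 and 6 and vehicle mice 3 to 5, series C held high-dose mice 7 and 8 and vehicle mice 6 and 7, and series D held vehicle mouse 8 alone. What the series stand for is not stated. No pair of libraries within either group agreed within sampling noise.

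Between high-dose semaglutide and vehicle mice 343 of the 14105 genes tested differed (2.43% of them, edgeR quasi-likelihood test, adjusted p under 0.05): 202 were higher (1.43%) and 141 lower (1%) than in vehicle mice. The paper reports that the high-dose group also lost body weight and ate less than the vehicle group. The part of body weight and food intake in these calls was not tested. The rises were mostly small and the falls larger. The median called rise was 0.47 and the median called fall was -1.14 on the log2 scale, and 16 rises against 81 falls exceeded a doubling or halving. Over all genes tested the median difference was -0.01. Among the 11962 genes with a mean of 1 CPM or more, 31 were called and did not overlap between the groups (0.259%), 9 higher and 22 lower, and 43 did not overlap whether called or not (0.359%).

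**Figure D1:**
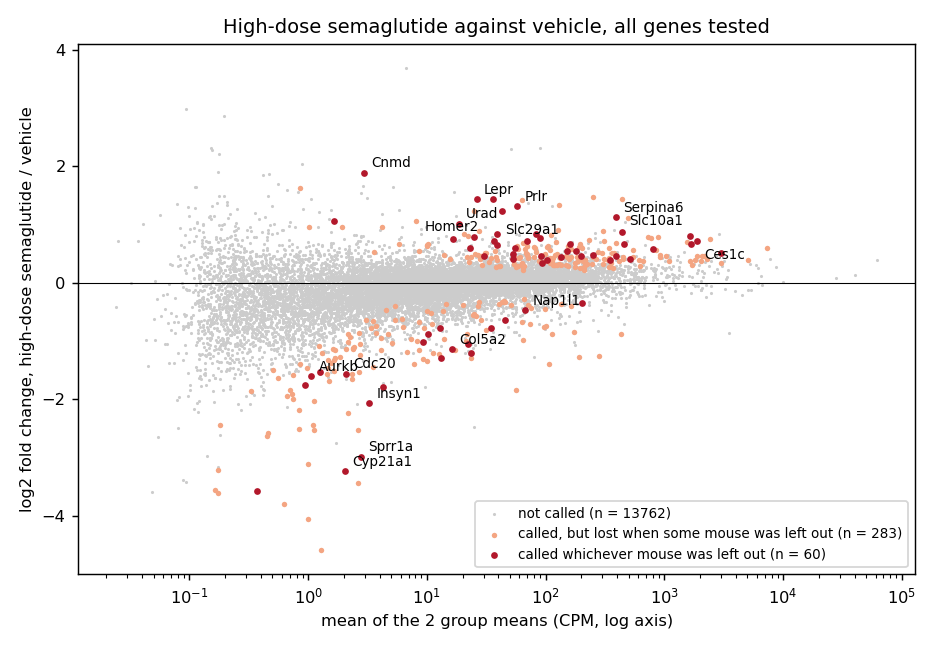
The log2 fold change of high-dose semaglutide over vehicle (vertical axis) against the mean level in CPM (horizontal log axis) for 14105 genes. Grey points were not called, orange points were called over the 16 mice but lost when some mouse was left out, and the 60 red points were called whichever mouse was left out and without high-dose mice 4 and 7, with named examples from Cnmd at 1.9 to Cyp21a1 at -3.24.

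The number of calls depended on which mice were in the fit, and not on mice 4 and 7 alone. Without high-dose mouse 4 the fit called 69 genes, without mouse 3 81 and without mouse 2 134, whereas without mouse 7 it called 745. Without mice 4 and 7 together it called 320, of which 273 were among the 343. All 69 genes called without mouse 4 were among the 343 (20.1% of them), and so were 342 of the 745 called without mouse 7. Leaving out mice 3 and 4 together, a choice made after seeing the data, left 11 genes, 9 higher and 2 lower. Leaving out vehicle mice one at a time gave 170 (mouse 2) to 339 genes (mouse 5), with 216 without mouse 8. As shares of the genes tested these are 0.489% (0.34% higher, 0.149% lower) without mouse 4, 0.574% (0.369% and 0.206%) without mouse 3, 5.28% (2.91% and 2.38%) without mouse 7 and 2.27% (1.4% and 0.872%) without mice 4 and 7. Without mice 3 and 4 they are 0.078% (0.0638% and 0.0142%), and without vehicle mice 1 and 2, also chosen after seeing the data, where 101 genes were called, 0.716% (0.454% and 0.262%).

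A mouse can be placed on the genes called without it, with 0 at the mean of the kept vehicle mice and 1 at the mean of the kept high-dose mice on the log2 scale. Mouse 4 lay at a median of 1.41 and mouse 3 at 1.5, beyond the mean of their group. Mouse 7 lay at 0.10 on the 745 genes called without it. This was within the range of the vehicle mice, which were placed in the same way at -0.02 to 0.34. The other 5 high-dose mice lay at 0.60 to 1.22. Without both mice in the fit, mouse 4 lay at 1.32 and mouse 7 at 0.14 on the 320 genes called, and mouse 7 was past the midpoint in 17.2% of them.

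**Figure D2:**
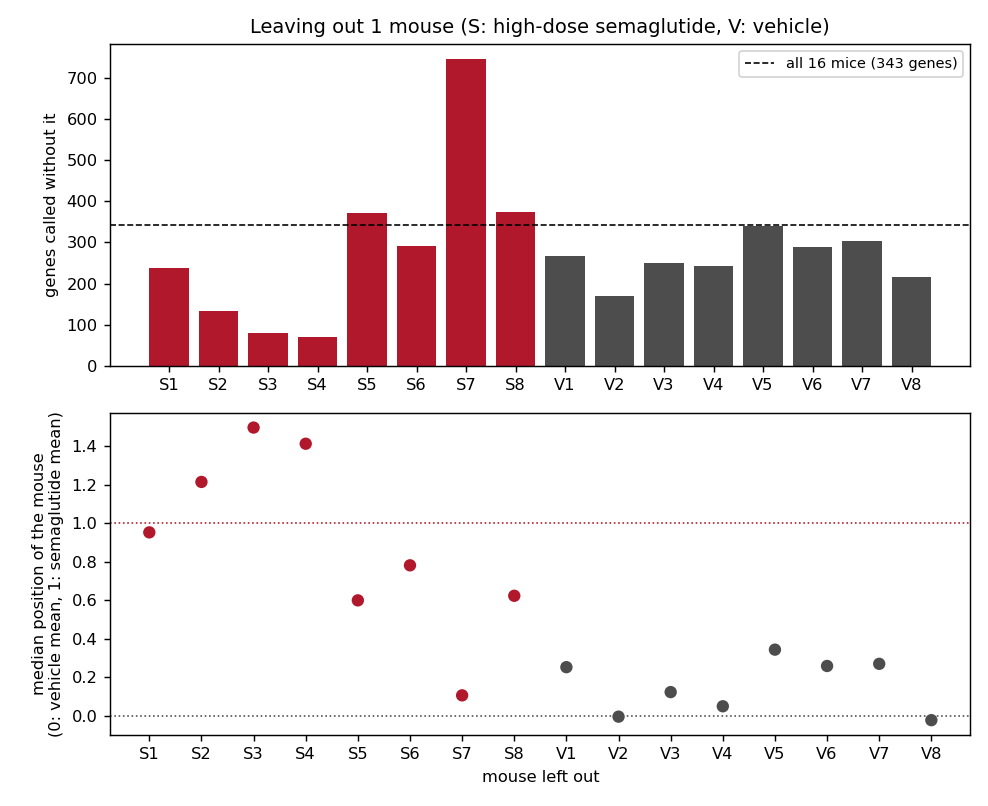
Upper plot, the number of genes called when each mouse was left out (bars; S high-dose semaglutide, V vehicle), with 343 for all 16 mice as a dashed line. Lower plot, the median position of the left-out mouse on those genes, from 0 (mean of the kept vehicle mice) to 1 (mean of the kept high-dose mice); S3 and S4 have the shortest bars and lie highest, and S7 has the tallest bar and lies among the vehicle mice.

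The differences also varied with the number series. Of the 343 genes, 343 kept their direction in series A, 337 in series B and 312 in series C when high-dose and vehicle mice of the same series were compared. The median called rise was 0.67 in series A, 0.35 in series B and 0.21 in series C, and the median called fall -1.49, -0.75 and -0.52. Because the 343 were called over these same mice, their direction was largely set beforehand, and these values are a description and no further support. Series A held 4 high-dose mice, with mice 3 and 4 among them, and series C held 2, with mouse 7 among them. The part of single mice in the differences between series was not tested. With the number series as a covariate in the edgeR fit, 294 genes were called (2.08%, 1.35% higher and 0.737% lower). Without low-dose semaglutide mouse 6, a mouse of another group in the shared fit, 502 were called (3.56%, 2.03% higher and 1.53% lower). The study excluded 1 outlier sample of the low-dose group. The labels do not mark it, so whether it was mouse 6 is not known here, and the main fit kept all mice. Mouse 7, of series C, also had the lowest sum of hepatocyte markers of its group (67507 CPM) and the highest sums of cholangiocyte markers (540 CPM) and stellate cell markers (1254 CPM), and the part of these in its position was not tested.

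In the fit of all mice, in each of the 16 fits that left out 1 mouse and in the fit without mice 4 and 7, 60 genes were called (0.425% of those tested), 40 higher and 20 lower. Because the 60 were chosen by calls over these same mice, the counts that follow describe them and are no further support. High-dose mice other than mouse 7 lay outside the vehicle range on the treated side for 49 to 59 of the 60 genes. Mouse 7 did so for 24 and lay beyond the vehicle median for 56. DESeq2, which called 516 genes (3.66%, 1.93% higher and 1.73% lower), called all 60. The 11 genes called without mice 3 and 4 were all among the 60, and because they are singled out by these data they are given as a description. They were Serpina6, Ces1c, Slc29a1, Slc10a1, Homer2, Urad, Tlcd1, Elovl2 and Erg28, which were higher, and Cyp21a1 and Nap1l1, which were lower.

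Serpina6 encodes corticosteroid-binding globulin, the plasma carrier of glucocorticoids made by hepatocytes (GRCm38 chr12:103646630-103657212, minus strand). Its level ran from 345 to 772 CPM in high-dose mice (median 543) and from 145 to 356 CPM in vehicle mice (median 245). All but the lowest high-dose mouse, mouse 7, stood above every vehicle mouse. The difference was 1.13 ± 0.15 on the log2 scale (SE, n = 8 mice a group, edgeR adjusted p = 1.39e-05), and 1.04 without mice 3 and 4 (edgeR adjusted p = 0.000588). Chow-fed mice had a mean of 597 ± 75.6 CPM (SD, n = 8), beside 536 ± 148 CPM in high-dose mice.

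Slc10a1 encodes NTCP, the sodium-dependent transporter that takes bile acids up from portal blood (chr12:80953183-80968705, minus strand). Levels ran from 407 to 807 CPM (median 569) in high-dose and from 243 to 360 CPM (median 321) in vehicle mice, with no overlap. The rise was 0.88 ± 0.14 (log2, SE, edgeR adjusted p = 0.000121), and within series A, B and C it was 1, 0.76 and 0.40. Of 18 genes of bile acid and organic anion transport tested, Slc10a1 was the only one called (5.56% beside 1.43% of all genes higher, median of the list 0.24). Among 15 genes of bile acid synthesis, 4 were higher and none lower, or 26.7% beside 1.43% of all genes higher, and no call remained without mice 3 and 4. They were Cyp2c70 (0.89), which makes muricholic acids in mice, Akr1d1 (0.70), Slc27a5 (0.48) and Cyp27a1 (0.46). Cyp27a1, the sterol 27-hydroxylase of the alternative route, was called in every fit that left out 1 mouse, while Akr1d1 was lost without high-dose mouse 2 or 3, Cyp2c70 without mouse 3, and Slc27a5 without mouse 3 or 4. Cyp7a1, the rate-limiting enzyme of the classic route, ran from 118 to 329 CPM and from 69.8 to 262 CPM, and its difference of 0.21 ± 0.35 did not pass the test (edgeR adjusted p = 0.798).

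Ces1c encodes a carboxylesterase that hepatocytes secrete into plasma (chr8:93099015-93131283, minus strand). It ran from 1574 to 3104 CPM in high-dose mice (median 2337) and from 1339 to 1493 CPM in vehicle mice (median 1416), so that the groups did not overlap and the vehicle mice lay close together. The rise was 0.73 ± 0.11 (log2, SE, edgeR adjusted p = 7.18e-05). Slc29a1, the equilibrative nucleoside transporter ENT1 (chr17:45585200-45599606, minus strand), ran from 160 to 248 CPM against 113 to 156 CPM, again without overlap, and rose by 0.66 ± 0.10 (edgeR adjusted p = 7.89e-05). Homer2, a scaffold protein, ran from 34 to 67.8 CPM against 21.4 to 32.8 CPM and rose by 0.83 ± 0.13 (edgeR adjusted p = 0.000213). Without mice 3 and 4 the 3 rises were 0.62, 0.56 and 0.66, and each passed the test.

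Urad, an enzyme of uric acid breakdown, rose by 1.02 ± 0.18 (edgeR adjusted p = 0.00152), from a vehicle median of 11.7 CPM to 25.1 CPM. Elovl2, which elongates polyunsaturated fatty acids, rose by 0.59, Erg28, a scaffold of sterol synthesis enzymes, by 0.42 and Tlcd1, a membrane lipid regulator, by 0.45. Dmac2, an assembly factor of mitochondrial complex I, rose by 0.60 (20.6 to 35.6 CPM against 16 to 21.6 CPM). Cnmd, which encodes chondromodulin, showed the largest called rise among genes with a mean of 1 CPM or more (1.9 ± 0.34, edgeR adjusted p = 0.00161), at 2.30 to 9.75 CPM against 0.706 to 2.46 CPM. Vehicle mouse 7 alone accounted for the upper end of the vehicle range of Cnmd, the next vehicle mouse being at 1.27 CPM.

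**Figure D3:**
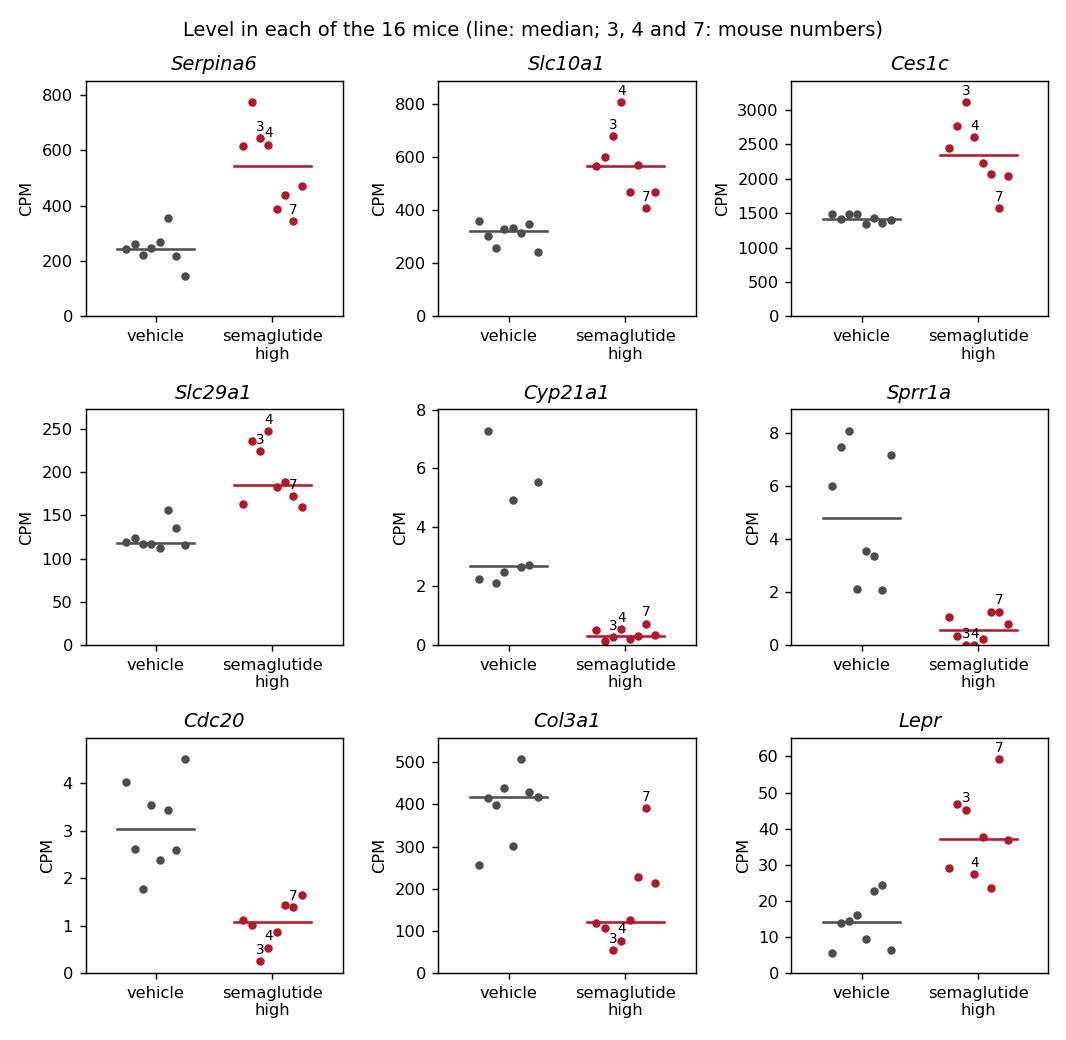
Level of 9 genes in CPM (vertical axes from 0) in each vehicle mouse (grey) and high-dose semaglutide mouse (red), with the median of each group as a line and high-dose mice 3, 4 and 7 numbered. Slc10a1, Ces1c, Slc29a1, Cyp21a1, Sprr1a and Cdc20 do not overlap between groups, whereas mouse 7 lies within the vehicle range of Serpina6 (345 CPM) and Col3a1 (392 CPM).

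Lepr and Prlr, which encode receptors of circulating hormones, were among the 12 largest called rises of genes with a mean of 1 CPM or more. Lepr, the leptin receptor (chr4:101717404-101815352, plus strand), ran from 23.7 to 59.2 CPM in high-dose mice (median 37.3) and from 5.68 to 24.3 CPM in vehicle mice (median 14.3). Mouse 7 had the highest value of the 16. The rise was 1.44 ± 0.33 (log2, SE, edgeR adjusted p = 0.0125). Chow-fed mice had 5.27 ± 3.69 CPM, so the high-dose group stood further from chow than the vehicle group did. Lepr was not alone in this. The medians of Elovl2, Cyp17a1 and Glul were also further from chow in high-dose than in vehicle mice. Those of Prlr and Slc10a1 were nearer to chow in high-dose mice. Prlr, the prolactin receptor, rose by 1.32 ± 0.29 (edgeR adjusted p = 0.00983), at 45.7 to 128 CPM against 12.2 to 49.4 CPM. Both were called whichever single mouse was left out. Klb, the co-receptor of FGF21 and the one call among 9 genes of FGF21 and its receptors (11.1% beside 1.43% of all genes), rose by 0.51 ± 0.14 (edgeR adjusted p = 0.0412), a call lost when high-dose mouse 1, 2, 3 or 4 or vehicle mouse 2, 4, 5, 6, 7 or 8 was left out. Fgf21 itself ran from 1.24 to 8.48 CPM and from 1.94 to 6.33 CPM, with a difference of -0.04 ± 0.38 that did not pass the test and that leaving out single mice turned in sign. None of the 3 tested genes of incretin and glucagon signaling was called, Gcgr, the glucagon receptor (0.14), and Dpp4, the enzyme that cleaves GLP-1 (0.21), among them (edgeR adjusted p = 0.296 and 0.0806).

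The list of urea cycle and amino acid catabolism held 30 tested genes, of which 7 were higher and none lower, or 23.3% beside 1.43% of all genes. The median of the list was 0.33 and 28 of the 30 were above 0. The summed hepatocyte markers given above, of which Cps1 is one, also moved with the treatment, and their part in the rises of this and other lists of hepatocyte genes was not tested. Hpd and Fah, which act in tyrosine breakdown, rose by 0.80 ± 0.17 and 0.41 ± 0.09 (edgeR adjusted p = 0.00715 and 0.0118) and were called in every fit that left out 1 mouse. Hpd ran from 1158 to 2739 CPM against 1084 to 1354 CPM, with medians of 2085 and 1191. Cps1, the entry enzyme of the urea cycle (0.76), and Prodh, which starts proline breakdown (0.59), were called over all mice. Cps1 was lost without high-dose mouse 2, 3 or 4 or vehicle mouse 2, 4, 6 or 8 and with the number series as a covariate (edgeR adjusted p = 0.0559), and Prodh without high-dose mouse 4. Without mouse 4 the list kept 3 calls, without mouse 3 4, without mouse 7 it had 10, and without mice 3 and 4 none. The median of the list within series A, B and C was 0.64, 0.13 and 0.02.

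Complement and coagulation proteins made by hepatocytes included 8 of 31 that were higher and none lower, or 25.8% beside 1.43% of all genes, with a median of 0.23. None of the 8 was called without mice 3 and 4. F7, coagulation factor VII, rose by 0.71 ± 0.14 (edgeR adjusted p = 0.0049), at 55.7 to 111 CPM against 45.3 to 60.4 CPM, and kept its call in every fit that left out 1 mouse. Mbl2 (0.54), Plg, plasminogen (0.46), and F10 (0.44) were called over all mice, but F7 was the one call of the list left without mouse 4. Plg was lost without mouse 3 or 4, Mbl2 without high-dose mouse 2, 3 or 4 or vehicle mouse 4, 6 or 7, and F10 without high-dose mice 1 to 6 or vehicle mice 1 to 7, each left out alone. Mouse 7 was the lowest of its group in F10 (344 CPM, the next lowest being 469 CPM) and Mbl2 (195 CPM, the next lowest 297 CPM). Among 20 apolipoprotein and lipoprotein genes, Apom (0.50), Lcat (0.43) and Lipc (0.40) were higher (15% beside 1.43%), and none of the 3 calls remained without mouse 4 or without mouse 3. Lcat was also lost without high-dose mouse 2 or vehicle mouse 7, and Lipc without high-dose mouse 1 or 8 or vehicle mouse 2, 3, 4, 6 or 7. Hnf4a, a master regulator of hepatocyte genes, rose by 0.56 ± 0.14 (edgeR adjusted p = 0.0184), which was lost without mouse 3 or 4.

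Of 61 cytochrome P450 genes of families 1 to 4, 10 were higher and none lower (16.4% beside 1.43% of all genes, median 0.25), and none was called without mice 3 and 4. Of the 10 called, the 4 with the largest rises belonged to the Cyp2c subfamily. Cyp2c54 (1.42 ± 0.37), Cyp2c37 (1.34 ± 0.35) and Cyp2c29 (1.11 ± 0.28) belong to drug and arachidonic acid metabolism. The other was Cyp2c70, which makes muricholic acids and was also counted among the bile acid synthesis genes above. Cyp2c54 ran from 42.7 to 230 CPM against 13.9 to 88.9 CPM, and Cyp2c29 from 276 to 1061 CPM against 186 to 654 CPM, so the groups overlapped. These genes are close paralogs, and reads that fit several of them could have been split by the counting. Cyp2c68 (0.83) was the member called in every fit that left out 1 mouse, and Cyp2c29, Cyp2c37 and Cyp2c54 were each lost without high-dose mouse 3 or 4, Cyp2c54 also without vehicle mouse 3, 4, 6 or 8 and Cyp2c37 without high-dose mouse 1 or vehicle mouse 2, 3, 4, 5, 6 or 8. Pericentral genes, those of hepatocytes near the central vein, included 4 higher of 18 (22.2% beside 1.43%, and none without mice 3 and 4): Cyp1a2 (0.74), Cyp2e1 (0.59), Cyp27a1 and Glul (0.39). Cyp27a1 was the one of these 4 called without mouse 4 or without mouse 3. Cyp1a2 was also lost without high-dose mouse 1 or 2 or vehicle mice 2 to 8, Cyp2e1 without high-dose mouse 2 or vehicle mouse 2, 3 or 8, and Glul without high-dose mouse 1, 2 or 6 or vehicle mouse 2, 3, 7 or 8, each left out alone. With the number series as a covariate Cyp1a2 and Cyp2e1 were not called (edgeR adjusted p = 0.0597 and 0.0564). Sult2a8, a bile acid sulfotransferase, rose by 1.48 ± 0.33 (edgeR adjusted p = 0.00993), with a call lost without mouse 3, and Gstt3, a glutathione transferase, by 0.79.

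Others of the 12 largest called rises were Acot3, Rdh16f2, Upp2 and Cyp17a1. Acot3, a peroxisomal acyl-CoA thioesterase, ran from 16.1 to 99.6 CPM against 3.80 to 37.1 CPM and rose by 1.45 ± 0.33 (edgeR adjusted p = 0.0128). Rdh16f2, a retinol dehydrogenase, rose by 1.24 ± 0.26 at 27.3 to 88.5 CPM against 15.6 to 37.9 CPM (edgeR adjusted p = 0.00715). Both were called in every fit that left out 1 mouse. Acot3 was not called with finer runs of animal numbers, described at the end, as a block (edgeR adjusted p = 0.0617). Upp2, a liver uridine phosphorylase, rose by 1.44 ± 0.35 but was lost without high-dose mouse 2, 3 or 4. Cyp17a1, a steroid hydroxylase, rose by 1.24 ± 0.36 (edgeR adjusted p = 0.0486) and was lost without any one of high-dose mice 1 to 6 or vehicle mouse 1, 2, 4, 5, 6 or 7. Within series B the difference of Acot3 was 0.20, beside 1.99 in series A and 1.12 in series C.

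Cyp21a1, Sprr1a, Insyn1 and Fndc10 fell, kept their calls in every fit that left out 1 mouse, and had medians of 0.168, 0, 0.0971 and 0.549 CPM in chow-fed mice. Cyp21a1 encodes the adrenal steroid 21-hydroxylase (chr17:34801348-34804561, minus strand). It ran from 0.136 to 0.726 CPM in high-dose mice (median 0.313) and from 2.10 to 7.27 CPM in vehicle mice (median 2.68), without overlap, mouse 7 being the highest of its group and still below every vehicle mouse. The fall was -3.24 ± 0.56 (log2, SE, edgeR adjusted p = 0.000977), and -2.08 within series C. Chow-fed mice had 0.220 ± 0.185 CPM. Cyp21a1 overlaps the gene Tnxa on the other strand, and whether the counting used strand is not stated.

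Sprr1a, a cornified envelope protein that injured cells can express, ran from 0 to 1.25 CPM (median 0.565) against 2.07 to 8.07 CPM (median 4.78) and fell by 2.99 ± 0.58 on the log2 scale (edgeR adjusted p = 0.0049). High-dose mice 3 and 4 had no read of it. Insyn1, an inhibitory synapse protein, ran from 0.219 to 3.24 CPM against 3.27 to 8.99 CPM and fell by 2.07 ± 0.40 (edgeR adjusted p = 0.00472). Its high-dose maximum and vehicle minimum nearly met. Fndc10, a membrane protein with a fibronectin domain, fell by 1.78 ± 0.36, from a vehicle median of 7.33 CPM to 1.79 CPM. Ly6d, a small surface protein, fell by 1.83 ± 0.49 (edgeR adjusted p = 0.0279), from 42.8 to 165 CPM in vehicle mice to 1.68 CPM in mouse 3 and 3.51 CPM in mouse 4, with the other high-dose mice at 9.97 to 52.2 CPM. This call was lost without high-dose mouse 2, 3 or 4 or vehicle mouse 2, 3 or 8, and with the number series as a covariate (edgeR adjusted p = 0.0602).

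The promoter of Sprr1a (GRCm38.p6 chr3:92485832-92485981, minus strand, RefSeq) is shown because this gene separated the groups completely. Capitals mark the TATA sequence TATAAA, which a search of both strands placed 43 bases before the start site and which was found in the promoters of 9.52% of the genes tested that had one in the table.
Sprr1a: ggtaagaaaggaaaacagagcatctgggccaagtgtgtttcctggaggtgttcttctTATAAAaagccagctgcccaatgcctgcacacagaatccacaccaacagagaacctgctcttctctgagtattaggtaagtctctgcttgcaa

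Of 25 cell cycle genes tested, 8 were lower and none higher, or 32% beside 1% of all genes, all 25 were below 0, and the median was -1.08. Cdc20, an activator of the anaphase-promoting complex, ran from 0.266 to 1.64 CPM (median 1.07) against 1.77 to 4.49 CPM (median 3.03), without overlap, and fell by 1.56 ± 0.32 (log2, SE, edgeR adjusted p = 0.00715). Aurkb, the Aurora B mitotic kinase, fell by 1.6 ± 0.35 at 0.109 to 0.991 CPM against 1.1 to 2.31 CPM. Mcm2, a subunit of the replicative helicase, fell by 1.01 ± 0.21 at 2.13 to 9.20 CPM against 9.76 to 18.2 CPM. These 3 did not overlap between groups and were called in every fit that left out 1 mouse. Mki67, the proliferation marker Ki-67 (-1.35), and Top2a, a topoisomerase (-1.20), were called over all mice, and both were lost without mouse 3 or 4, Top2a also without high-dose mouse 2 or vehicle mouse 1 or 2. Without mouse 4 the list kept 3 calls, without mouse 3 3, and without mice 3 and 4 none, with a median of -0.86. Without mouse 7 it had 15. Other genes of replication and mitosis without overlap were Kif20a (-1.11), Ckap2l (-1.52), Dtl (-1.47) and E2f1 (-0.87), each lost without mouse 3 or 4, Dtl also without vehicle mouse 3 and E2f1 also without high-dose mouse 2 or vehicle mouse 2.

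Mean differences of the cell cycle list from the vehicle mean were -1.72 in mouse 3, -1.41 in mouse 4 and -0.33 in mouse 7, and vehicle mice lay between -0.27 and 0.28. All 8 high-dose mice were thus below all 8 vehicle mice in this list, mouse 7 included. The same was not so for the collagen list, in which mouse 7 lay at 0.16 among vehicle mice at -0.42 to 0.41.

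**Figure D4:**
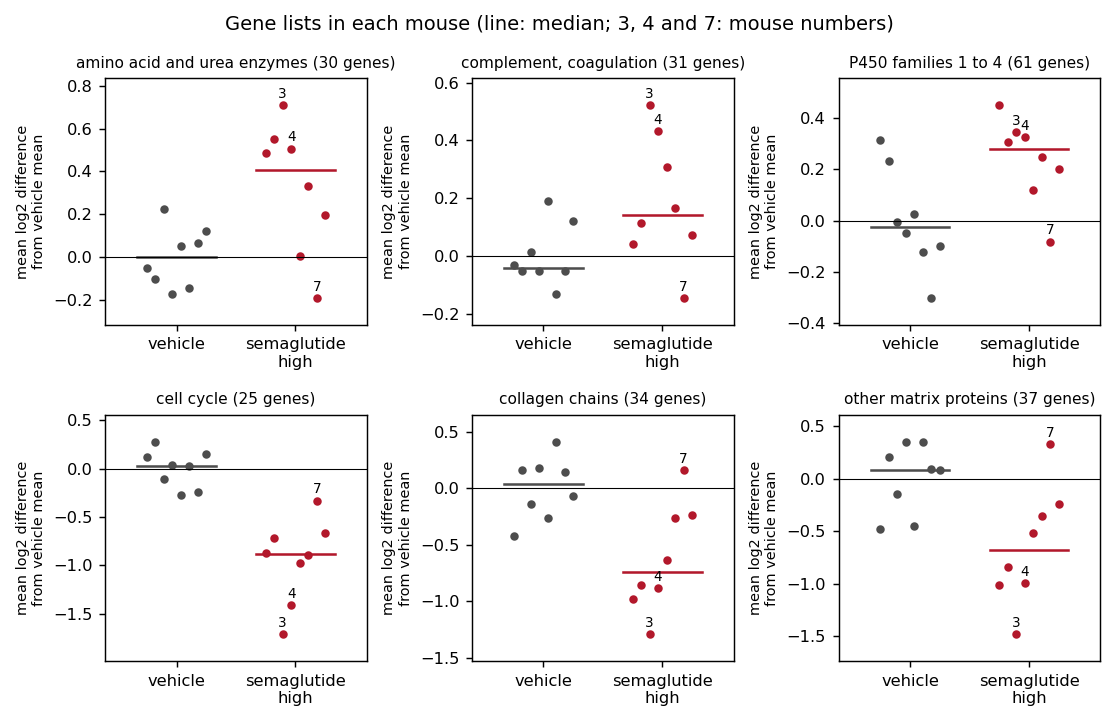
Mean log2 difference of 6 gene lists from the vehicle mean (vertical axes) in each vehicle mouse (grey) and high-dose semaglutide mouse (red); lines are group medians and high-dose mice 3, 4 and 7 are numbered. In the cell cycle list mouse 7, at -0.33, is below every vehicle mouse, while in the collagen list it lies at 0.16 and in the amino acid list at -0.19, among or below the vehicle mice.

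The promoters of 4 falling genes of cell division are shown because the 5 letters CCAAT recur in them. CCAAT is the core of the site of the factor NF-Y, known from promoters of mitotic genes. Of the 25 cell cycle genes, 20 had a promoter in the RefSeq table (GRCm38.p6, 250 bases before to 50 after the start), and 15 of the 20 (75%) held CCAAT on either strand, beside 4707 of 11057 genes tested (42.6%). Among called genes the share was 51 of 107 that were lower (47.7%) and 89 of 166 that were higher (53.6%). Capitals mark CCAAT or its reverse complement, ATTGG. The TATA sequence was in none of the 20 promoters, and 3 further motifs searched were in at most 1. Kntc1, a kinetochore protein that fell by 1.75, was not one of the 25 genes and was named after its values were seen. It is on chr5:123749476-123749775 (plus strand). Cdc20 is on chr4:118437294-118437543, Mki67 on chr7:135716330-135716579 and Top2a on chr11:99024140-99024439, all on the minus strand.
Cdc20: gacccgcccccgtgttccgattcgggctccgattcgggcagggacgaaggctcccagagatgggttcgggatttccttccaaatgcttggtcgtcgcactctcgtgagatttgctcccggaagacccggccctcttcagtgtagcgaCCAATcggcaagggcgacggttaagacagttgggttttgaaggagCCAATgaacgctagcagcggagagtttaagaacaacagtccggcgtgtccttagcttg
Mki67: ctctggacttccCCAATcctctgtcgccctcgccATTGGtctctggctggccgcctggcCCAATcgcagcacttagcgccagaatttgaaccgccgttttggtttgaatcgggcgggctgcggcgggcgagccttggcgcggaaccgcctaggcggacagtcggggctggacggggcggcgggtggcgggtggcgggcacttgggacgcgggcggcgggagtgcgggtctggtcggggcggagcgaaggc
Top2a: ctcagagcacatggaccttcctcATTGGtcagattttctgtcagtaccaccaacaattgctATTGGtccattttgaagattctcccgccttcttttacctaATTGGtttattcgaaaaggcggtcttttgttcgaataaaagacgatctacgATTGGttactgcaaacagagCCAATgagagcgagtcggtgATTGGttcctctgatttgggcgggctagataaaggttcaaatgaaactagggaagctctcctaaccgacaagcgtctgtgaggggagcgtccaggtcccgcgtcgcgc
Kntc1: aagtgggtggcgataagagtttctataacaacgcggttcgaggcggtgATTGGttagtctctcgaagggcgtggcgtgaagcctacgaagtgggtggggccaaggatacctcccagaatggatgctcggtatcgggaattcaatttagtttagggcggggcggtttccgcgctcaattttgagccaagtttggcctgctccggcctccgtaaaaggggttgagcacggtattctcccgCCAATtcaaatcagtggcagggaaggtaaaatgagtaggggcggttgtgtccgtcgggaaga
The sequences hold 2 such sites in Cdc20, 3 in Mki67, 6 in Top2a and 2 in Kntc1.

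Of 34 collagen genes 5 were lower and none higher (14.7% beside 1% of all genes lower, median -0.69). Of 37 other matrix genes 7 were lower and none higher (18.9% beside 1%, median -0.49). In both lists no call remained without mice 3 and 4, and mouse 7 lay within the vehicle range (0.16 and 0.33 from the vehicle mean). Cholangiocyte and monocyte-derived macrophage markers had lower sums in the high-dose mice, as given above. Stellate cell markers, of which Col1a1 is one, also had a lower median sum (625 against 941 CPM). The part of these cell types in these counts was not tested. Col3a1, the main chain of reticular fibers, ran from 55.1 to 392 CPM (median 123) against 256 to 507 CPM (median 417) and fell by 1.26 ± 0.31 (log2, SE, edgeR adjusted p = 0.0189), with mouse 7 at 392 CPM and mouse 3 at 55.1 CPM. Col1a1, the chain that the study's stratification stained, ran from 30.4 to 239 CPM against 123 to 344 CPM and fell by 1.27 ± 0.37 (edgeR adjusted p = 0.0493). Col5a2, which regulates fibril diameter, fell by 1.14 ± 0.25 (edgeR adjusted p = 0.00993) and was the one collagen called in every fit that left out 1 mouse. Col3a1 was lost without high-dose mouse 2, 3 or 4, and Col1a1 without high-dose mouse 1, 2, 3, 4 or 5 or any vehicle mouse from 2 to 8, and also with the number series as a covariate (edgeR adjusted p = 0.057). Without mouse 4 the collagen list kept 1 call and the matrix list none, and likewise without mouse 3. Without mouse 7 the counts were 12 and 11, and without mice 4 and 7 they were 6 and 8.

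Lox, a lysyl oxidase that cross-links collagen and elastin, fell by 1.56 ± 0.39 at 0.607 to 2.08 CPM against 2.25 to 5.01 CPM, without overlap, and Loxl2 by 0.99. Lox was lost without high-dose mouse 2, 3 or 4 and Loxl2 without mouse 3 or 4. Mfap4 (-1.40), Fmod, which encodes fibromodulin (-1.30), Eln, elastin (-1.21), and Fbn1, fibrillin (-1), were the matrix genes that fell most, and none of the 4 was called without high-dose mouse 1, 2, 3 or 4 or vehicle mouse 4. Mfap4, Fmod and Eln were also lost without vehicle mouse 2, Fmod and Eln without high-dose mouse 6 or vehicle mouse 8, and Fmod without high-dose mouse 5 or vehicle mouse 6 or 7. Timp1, an inhibitor of matrix proteases, had a difference of -1.01 ± 0.34 that did not pass the test (edgeR adjusted p = 0.0946), and Acta2, the smooth muscle actin of activated stellate cells, one of -0.28 ± 0.38. No member of the list of 26 stellate cell genes was called in either direction (median -0.28). Stellate cell markers, which include Col1a1, summed to 398 to 1254 CPM (median 625) in high-dose and 745 to 1097 CPM (median 941) in vehicle mice.

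Further called falls without overlap were in genes of varied function. Anxa2, an annexin, ran from 16.2 to 104 CPM against 121 to 238 CPM and fell by 1.39 ± 0.36 (edgeR adjusted p = 0.0241), with mice 3 and 4 lowest and mouse 7 highest of the high-dose group. Nrg1, an ErbB receptor ligand (-1.44), Cxcl14, a chemokine (-1.15), Abcb1b, a drug efflux pump (-0.88), and Filip1l (-0.77) also separated the groups. Anxa2 and Abcb1b were lost without high-dose mouse 2, 3 or 4, Anxa2 also without vehicle mouse 8, Nrg1 and Cxcl14 without high-dose mouse 3 or 4, and Filip1l without mouse 4. Nap1l1, a histone chaperone (-0.47 ± 0.09, 47.1 to 67.9 CPM against 68.7 to 85.5 CPM), Ctps, CTP synthase (-0.89 ± 0.19), and Unc119, a lipid-binding trafficking protein (-0.78 ± 0.16), were without overlap and kept their calls in every fit that left out 1 mouse. Fabp4, a fatty acid carrier of adipocytes and macrophages, fell by 1.05 ± 0.23 (edgeR adjusted p = 0.00993), from a vehicle median of 29.8 CPM to 13.3 CPM, and kept its call likewise.

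B cell transcripts gave some of the largest fold changes, and these rested on single vehicle mice. Ms4a1, which encodes CD20, ran from 0.288 to 1.39 CPM in high-dose mice (median 0.807) and from 0.432 to 15.0 CPM in vehicle mice (median 1.16), and the groups overlapped. Vehicle mice 1 and 2 had 15.0 and 12.6 CPM. The fitted fall was -2.53 ± 0.63 (log2, SE, edgeR adjusted p = 0.0215) over all mice and -0.84 without these 2 mice, where it did not pass the test (edgeR adjusted p = 0.547). Of 5 B cell markers measured, 4 were lower (80% beside 1% of all genes), none of them without vehicle mice 1 and 2, and the median went from -2.47 to -1.05. Pou2af1 (-3.43), Pax5 (-2.45) and Irf4 (-2.02), transcription factors of the B lineage, were likewise not called without these mice (edgeR adjusted p = 0.494, 0.436 and 0.403). Ms4a1 was lost without vehicle mouse 1 or 2 alone and also without high-dose mouse 3 or 4, Pax5 without these or high-dose mouse 2, Pou2af1 without high-dose mouse 2 or 4 or vehicle mouse 1 or 2, and Irf4 in each fit that left out 1 mouse but those without high-dose mouse 7 or vehicle mouse 3, 4 or 5. With the number series as a covariate Irf4 was not called either (edgeR adjusted p = 0.0597). The 5 markers summed to 3.74 to 23 CPM in high-dose mice and to 4.79 to 164 CPM in vehicle mice, and leaving out these vehicle mice was chosen after seeing the data. Among the largest falls, C1s2, a complement protease gene, rested on vehicle mouse 2 (18.9 CPM, the next vehicle mouse being at 0.375 CPM), and was lost without this mouse or high-dose mouse 2, 3 or 4.

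Lists of other immune cells held few calls. Of 43 chemokine and receptor genes 3 were lower (6.98% beside 1% of all genes), Ccl8 (-2.52) and Cxcr5 (-2.18) beside Cxcl14, and all 3 calls were lost without mouse 3 or 4. Ccl8 was also lost without high-dose mouse 1, 2, 6 or 8 or vehicle mouse 1, 2 or 7, and Cxcr5 without high-dose mouse 2 or 6 or vehicle mouse 1, 2 or 7. No gene of MHC class II (11 genes, median -0.68), of lipid-associated macrophages (18, -0.53), of Kupffer cells (15, -0.11), of the interferon response (29, -0.22) or of the ductular reaction (20, -0.59) was called. All 11 MHC class II and all 20 ductular genes were below 0. Within series A, B and C the median was -1.34, -0.0083 and -0.52 for the MHC class II list and -1.01, -0.29 and -0.072 for the ductular list, so each had a series with a median near 0. Trem2, a lipid receptor of macrophages in MASH, had 3.81 to 19.1 CPM against 10.2 to 24.6 CPM and a difference of -0.53 ± 0.31 (edgeR adjusted p = 0.383). T cell markers summed to 2.57 to 11.4 CPM against 2.52 to 17.2 CPM. Themis, a regulator of T cell receptor signaling, fell by 1.28 ± 0.34 (edgeR adjusted p = 0.0303), a call lost without high-dose mouse 2, 3 or 4 or vehicle mouse 5 or 6. The mean of Themis was 13.5 CPM in high-dose and 33.1 CPM in vehicle mice, above the median sum of the T cell markers (6.79 and 6.94 CPM). Which cells its reads came from was not tested.

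Lipid metabolism genes mostly did not pass the test. Of 19 lipid droplet genes and 24 genes of fatty acid oxidation none was called (medians -0.07 and 0.05), and of 21 genes of lipogenesis and triglyceride synthesis 1 was higher (4.76% beside 1.43% of all genes), Dgat2 (0.38 ± 0.11), the acyltransferase of triglyceride synthesis, lost without high-dose mouse 1, 2, 3 or 4 or vehicle mouse 1, 2, 3, 4 or 8, and with the number series as a covariate (edgeR adjusted p = 0.0536). Fasn, fatty acid synthase, ran from 876 to 2787 CPM against 787 to 4477 CPM (-0.24 ± 0.35, edgeR adjusted p = 0.765). Plin2, the coat protein of lipid droplets, ran from 486 to 770 CPM against 684 to 942 CPM (-0.38 ± 0.15, edgeR adjusted p = 0.176). Cidea, a lipid droplet fusion protein, ran from 5.58 to 44 CPM against 25.3 to 67.0 CPM (-1.13 ± 0.36, edgeR adjusted p = 0.0791). Of 28 cholesterol genes 2 were higher (7.14%): Stard4, a sterol carrier (0.61), and Fdft1, squalene synthase (0.47), and both calls were lost without mouse 2 or 4, Stard4 also without high-dose mouse 1 or 3 or vehicle mouse 2, 6 or 7. Cell stress genes of the ATF4 pathway (20 genes, median -0.30) and endoplasmic reticulum chaperones (20, -0.03) held no call.

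The genes by which mice 4 and 7 stood furthest from the other 7 mice of their group overlapped. Mup7, a major urinary protein, was at 622 CPM in mouse 3, 423 CPM in mouse 4 and 4.95 CPM in mouse 7, with the other high-dose mice at 14.3 to 54.6 CPM and vehicle mice at 4.48 to 118 CPM. Hsd3b5, a steroid dehydrogenase of male mouse liver, was at 76.8 CPM in mouse 3, 18.9 CPM in mouse 4 and 0 CPM in mouse 7, with at most 2.90 CPM in any vehicle mouse. Mup1 and Mup12 were likewise highest in mice 3 and 4 and lowest in mouse 7 among the high-dose mice. None of these 4 was called (edgeR adjusted p of 0.225 for Mup7 and 0.122 for Hsd3b5), and the Mup genes are near-identical copies whose reads the counting could have split. In chow-fed mice the medians of Mup7 and Hsd3b5 were 470 and 93.1 CPM.

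Mouse 4 also stood above the other high-dose mice on average in Serpina1e (1239 CPM, mouse 3 being at 1670 CPM) and below them in Akr1b7 (0.135 CPM), Cyp2a4 (2.90 CPM), Ly6d, Sult1e1 and Bmp8b. Mouse 7 stood above the other 7 in Mmp7, Scube3, Scube1, Gipc2 and Sdcbp2, by 2.56, 2.52, 2.31, 2.31 and 2.30 on the log2 scale, and below them in Lrtm1. Mmp7 encodes a matrix protease of epithelial cells, and its vehicle range was 0.931 to 13.3 CPM beside 7.26 CPM in mouse 7.

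**Figure D5:**
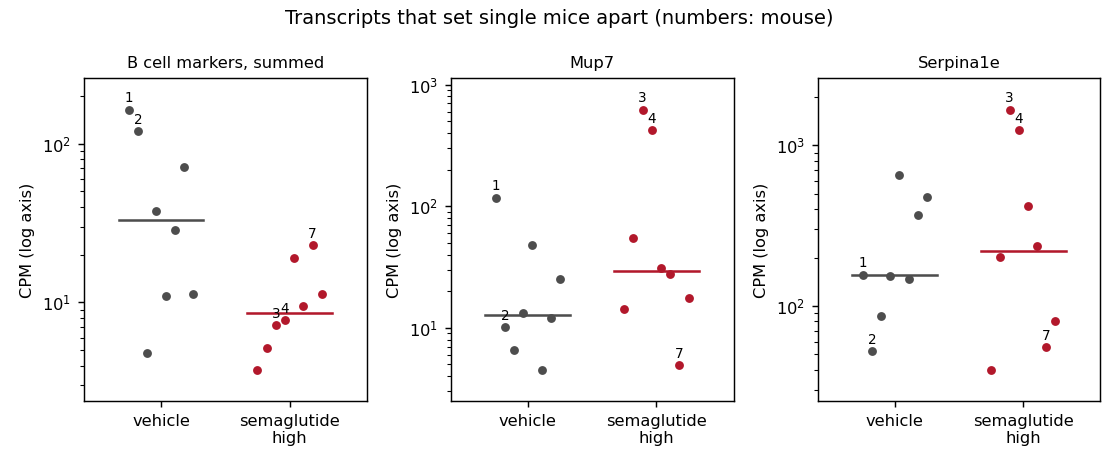
Summed B cell markers, Mup7 and Serpina1e in CPM (log axes) in each vehicle mouse (grey) and high-dose semaglutide mouse (red), with group medians as lines; vehicle mice 1 and 2 and high-dose mice 3, 4 and 7 are numbered. Vehicle mice 1 and 2 have the highest B cell sums (up to 164 CPM), and high-dose mice 3 and 4 the highest Mup7 (622 and 423 CPM) and Serpina1e.

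High-dose semaglutide was tested against low-dose semaglutide (3 µg/kg, 8 mice), and no gene was called (0%) by edgeR or by DESeq2, with 549 genes at an unadjusted p under 0.05 in edgeR (3.89%). Without low-dose mouse 6 2 genes were called: Cnmd, with a mean of 4.65 CPM at the high and 1.45 CPM at the low dose (log2 difference 1.66, edgeR adjusted p = 0.0146), and Slc29a1, with 197 and 137 CPM (0.52, edgeR adjusted p = 0.00532). Over all 8 low-dose mice, Serpina6 had 386 ± 106 CPM at the low dose beside 536 ± 148 CPM at the high dose (SD), Slc10a1 456 ± 140 beside 571 ± 129 CPM, and Cyp21a1 0.939 ± 1.24 beside 0.380 ± 0.198 CPM. The log2 differences between doses were 0.48 ± 0.15, 0.33 ± 0.14 and -1.34 ± 0.57 (SE), and none passed the test. A missed threshold does not show that both doses act alike.

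Against high-dose zalfermin, an FGF21 analog given at 0.2 mg/kg to 8 mice, 63 genes differed (0.447%), 44 higher (0.312%) and 19 lower (0.135%) with semaglutide, and DESeq2 called 143 (1.01%, 0.709% higher and 0.305% lower). Cidea had a mean of 21 ± 11.6 CPM with semaglutide, 2.94 ± 2.70 CPM with zalfermin and 46.4 CPM with vehicle (SD), and the drugs differed by 2.87 ± 0.43 (log2, SE, edgeR adjusted p = 0.00014). Got1, an aminotransferase, was at 183 ± 32 beside 456 ± 131 CPM, and the urea cycle enzymes Cps1 and Asl were lower with semaglutide than with zalfermin by 0.80 and 0.76. Of the 60 genes called in every fit described above, 5 were among the 63. They were Unc119 (0.80), Scamp5 (0.86) and Psmd8 (0.33), higher with semaglutide, and Hpd (-0.75) and Ttc38 (-0.39), lower. Serpina6, Slc10a1 and Ces1c had means of 661, 745 and 2721 CPM with zalfermin, and their differences between the drugs (-0.30, -0.38 and -0.21) did not pass the test. These counts moved with single mice: leaving out both mice 4 and 7 gave 19 genes, leaving out high-dose mouse 3 gave 119, and leaving out high-dose mouse 6, 7 or 8 gave 27, 25 or 29. Leaving out zalfermin mouse 1, 2 or 6 gave 27, 40 or 31.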

How the data were processed

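Liver RNA of 56 mice, 8 in each of 7 groups, was analysed from the authors' deposited table of raw counts, whole reads per gene for 21935 genes. The authors made stranded mRNA libraries, sequenced them on an Illumina instrument and aligned reads with STAR to GRCm38; the submitters' processing notes also name Trim Galore 0.6.4 and Salmon 1.9.0. The counting program and its use of strand are not given in the sources used here, so reads of overlapping or antisense genes cannot be told apart. Samples were grouped by their labels, and none was left out.

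Genes reaching 5 reads in at least 3 mice (14105) were tested with edgeR 4.0.16 in R 4.3.3: TMM scaling, 1 quasi-likelihood fit of all 7 groups, two-sided F tests and Benjamini-Hochberg adjustment over all genes tested, with 0.05 as the threshold for a call. Log2 fold changes and standard errors come from this fit, and adjusted p-values are edgeR's unless DESeq2 is named. CPM used normalized library sizes, and log2 CPM a prior count of 2. The smallest p that an exact permutation test of 8 against 8 mice allows is 0.00016. Replicates were separate mice. The fit was tested on simulated counts.

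The members and gene lists were chosen with earlier results of these data known. Named genes were the 12 largest rises and 12 largest falls among called genes with a mean of 1 CPM or more, called genes without overlap at that level, the 10 lowest p-values among genes called in every fit that left out 1 mouse and without mice 4 and 7, up to 4 called genes per direction of each list with its best-known member, genes named in the study, and the 5 genes per direction by which mice 4 and 7 deviated most; the text gives those the results turn on, and Tlcd1, Erg28, Elovl2, Fndc10, Kntc1, Got1, Asl, Scamp5, Psmd8 and Ttc38 were named after their values were seen. Alternatives were DESeq2 1.42.0, its size factors, 2 other filters, a term for the number series, runs of animal numbers as a block, fits restricted to the 2 groups compared, and mice left out. Coordinates are of GRCm38 (GENCODE M21), and promoters are RefSeq's. One result is not reported here.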

Additional observations from a re-analysis of the deposited data

Results flagged for a closer look

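Of 234 groups of 8 mice examined for genes named here, 12 had a mouse far from the other 7. The rule would pick about 1 in 20 groups of independent values by chance. These groups share the same mice, so that share cannot be set against the count, and the mice below are listed as a description. A pair of mice that stands apart together can be missed by the rule. High-dose mouse 7 was low in F10 (344 CPM, the next being 469 CPM), Fah (422 and 556 CPM) and Mbl2 (195 and 297 CPM). High-dose mouse 3 was low in Ctps (4.87 and 6.45 CPM) and mouse 4 in Akr1b7 (0.135 and 1.06 CPM). Vehicle mouse 1 was low in Col1a1 (123 CPM, the next being 225 CPM), Gipc2 (1.55 and 4.35 CPM) and Sdcbp2 (3.22 and 12.4 CPM). Vehicle mouse 2 was high in C1s2 (18.9 and 0.375 CPM), mouse 7 in Cnmd (2.46 and 1.27 CPM), and mouse 8 in F10 (483 and 393 CPM) and Slc27a5 (885 and 780 CPM).

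Both drugs were compared at their high doses, and the difference between them passed the edgeR test for 11 of the genes named. Of all 14105 genes tested, 63 passed it (0.447%). Got1, Asl, Scamp5, Psmd8 and Ttc38 were named after their values were seen, so the count of 11 is a description. With semaglutide Sdcbp2 was higher than with zalfermin by 3.36, Cidea by 2.87, Themis by 1.94, Scamp5 by 0.86, Unc119 by 0.80 and Psmd8 by 0.33 on the log2 scale. The log2 difference was -1.31 for Got1, -0.80 for Cps1, -0.76 for Asl, -0.75 for Hpd and -0.39 for Ttc38. Both comparisons with vehicle share the vehicle mice.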

How the results depend on the processing

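Against 343 genes (202 higher, 141 lower), leaving out 1 mouse gave 69 to 745 genes, 48 to 410 of them higher and 21 to 335 lower. High-dose mice 2, 3, 4 and 7 and vehicle mice 2 and 8 each moved the number by over 1.5 times (134, 81, 69, 745, 170 and 216 genes). The number was 11 (9 higher, 2 lower) without high-dose mice 3 and 4, 101 (64 higher, 37 lower) without vehicle mice 1 and 2, and 516 (244 lower) with DESeq2, and 216 genes were lower without low-dose mouse 6 in the fit. The comparison with the low dose gave 0 to 2 genes when 1 mouse was left out, 2 of them without low-dose mouse 6. The 63 genes against high-dose zalfermin became 25 to 119 when 1 mouse was left out, 143 with DESeq2, 119 without low-dose mouse 6, 19 without high-dose mice 4 and 7 and 166 without high-dose mice 3 and 4. The cause of these changes was not tested.

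The sign turned for C1s2 without vehicle mice 1 and 2 (0.41). Fgf21 ran from -0.40 to 0.16 when 1 mouse was left out, and was at 0.062 without high-dose mice 3 and 4 and at 0.28 without vehicle mice 1 and 2. Without high-dose mice 3 and 4 Hsd3b5 was at -1.12, Mup1 at -0.77, Mup12 at -0.77, Mup7 at -0.26 and Serpina1e at -0.61. Lrtm1 ran from -0.062 to 0.73 when 1 mouse was left out. The difference in total reads ran from 574713 to 1866250 when 1 mouse was left out. Replicate numbers follow accession order and pair no mice. The animal numbers of the labels fall into 13 runs, 6 of which hold a high-dose and a vehicle mouse, and what the runs stand for is not stated. Deviations from the group means correlated at -0.13 to 0.45 within these 6 pairs, and 3 of the 6 high-dose mice correlated best with the vehicle mouse of their run. With the runs as a replicate block, added after seeing the data, 194 genes were called (129 higher, 65 lower). Of these, 175 were among the 343 and 58 among the 60, and against zalfermin 108 genes were called. Named genes not called against vehicle in this fit included Acot3, Hnf4a, Akr1d1 and Abcb1b (edgeR adjusted p = 0.0617, 0.071, 0.0829 and 0.0624). Mki67, Top2a, Ckap2l, Lox, Col1a1 and Cps1 were not called either (edgeR adjusted p = 0.0577, 0.0827, 0.0587, 0.0589, 0.0777 and 0.124). Genes under the read minimum, Glp1r among them, were not tested, and the falls of scarce transcripts rest on few reads.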
